A study of Mus musculus with 10 samples.

Results

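A later stage of the serum response in mouse embryonic fibroblasts (MEFs) was examined by setting cells after 90 min of serum against cells after 30 min. The comparison used 4 of the 10 arrays of the series: wild-type (WT) and Med23 knockout (KO) MEFs, each sampled after 30 min and after 90 min of serum. They were chosen by their labels, and each 90 min array was paired with the 30 min array of its own genotype. Another 2 arrays, 1 of each genotype taken without serum (0 min), served as the starting level. The cells came from embryos of day 9.5 and had immortalised on their own in culture, and the labels report no further agent. The labels do not say how many lines stood behind each genotype or how long cells had been without serum. The serum arrays of the series were directed at SRF, serum response factor, and at the need of its target genes for Med23. Med23 is a subunit of Mediator, which passes signals from DNA-bound activators to the transcription machinery. Each condition had 1 array, so the 2 genotypes took the place of replicates.

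Serum returns growth factors and lipids to resting fibroblasts. A first wave of genes, the immediate-early genes, is switched on by transcription factors already present in the cell, SRF among them, and needs no new protein. Many of its products are transcription factors, and many of its messenger RNAs are short-lived. Genes that start later include secreted factors, regulators that feed back on the first wave, and the machinery of growth. Genes that are active in cells deprived of growth factors, such as targets of the FoxO factors, are known to be switched off when growth signalling returns.

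Total RNA had been labelled and hybridised to Affymetrix arrays, and expression is given as log2 values, on which a step of 1 is a 2-fold difference. Of 18193 named genes, 11933 had a value above 3.90, the median of all probe sets, on at least 1 of the 6 MEF arrays and were tested. In WT cells Med23 stood at 7.14, 7.39 and 6.90 at 0, 30 and 90 min. In KO cells it stood at 3.30, 3.30 and 2.91, below the array median, as their labels have it. Fibroblast markers were above the array median for 12 of 15 genes on each of the 4 arrays. Macrophage markers were above it for 4 of 11 genes on the WT and 3 of 11 on the KO arrays, with Cd14 highest (9.22 and 6.13 at 30 min), while Ptprc, which marks all leukocytes, lay between 2.89 and 3.20. Neural markers were above it for 5 or 6 of 9 genes, with Map2, Ncam1, Nes and Sox10 above it on all 4 arrays. Gfap was above it on both KO arrays and on the WT array at 90 min. Sox2 stood at 8.33, 7.61 and 9.11 in WT cells and between 2.61 and 2.99 in KO cells. The part of these genes in the differences below was not tested. Array medians ran from 3.86 to 3.93, and the upper quartile was 6.64 on both 30 min arrays against 6.40 in WT and 6.49 in KO cells at 90 min. The 24 probe sets of poly-A control transcripts, which are not mouse genes, also had lower values at 90 than at 30 min, with median differences of -0.46 in WT and -0.44 in KO cells and 23 of 24 lower in both pairs. Their part in the differences below was not tested. In a culture, fewer cells of a type and less RNA per cell cannot be told apart.

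On these arrays far more genes were called lower than higher between 30 and 90 min. With limma on all 6 MEF arrays, 966 genes were lower at 90 min and 217 higher (Benjamini-Hochberg adjusted p below 0.05 and 1 sign in both pairs), which is 8.1% and 1.82% of the genes tested. The smallest differences called were -0.64 and 0.64 on the log2 scale, and the median called differences were -0.99 and 1.02. Lower genes made up 81.7% of the calls as deposited, 69.3% after quantile normalization and 85.4% after centring each array on its median. Neither alternative scales the arrays on the poly-A controls, whose median differences were -0.46 in WT and -0.44 in KO cells. How far that shift bears on the excess of lower genes was not tested. Over all genes tested the median difference was -0.13, with -0.17 in the WT pair and -0.08 in the KO pair. Levels were at least 2-fold lower in both pairs for 278 genes, 2.33% of those tested, and at least 2-fold higher in both for 84 genes, 0.704%, counts that rest on no test. Of these, 270 and 78 were also called. The calls rest on all 6 arrays together. Without any 1 of them, WT or KO at 0, 30 or 90 min, no gene passed, with lowest adjusted p-values from 0.0546 to 0.269 and 1549 to 4239 genes at an unadjusted p under 0.05. With the 4 arrays at 30 and 90 min alone, no gene passed either, with a lowest adjusted p of 0.0592 and 2675 genes at an unadjusted p under 0.05. Nothing in the labels says whether the arrays came from separate cultures of 1 line, so p-values measure the spread between these arrays.

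**Figure D1:**
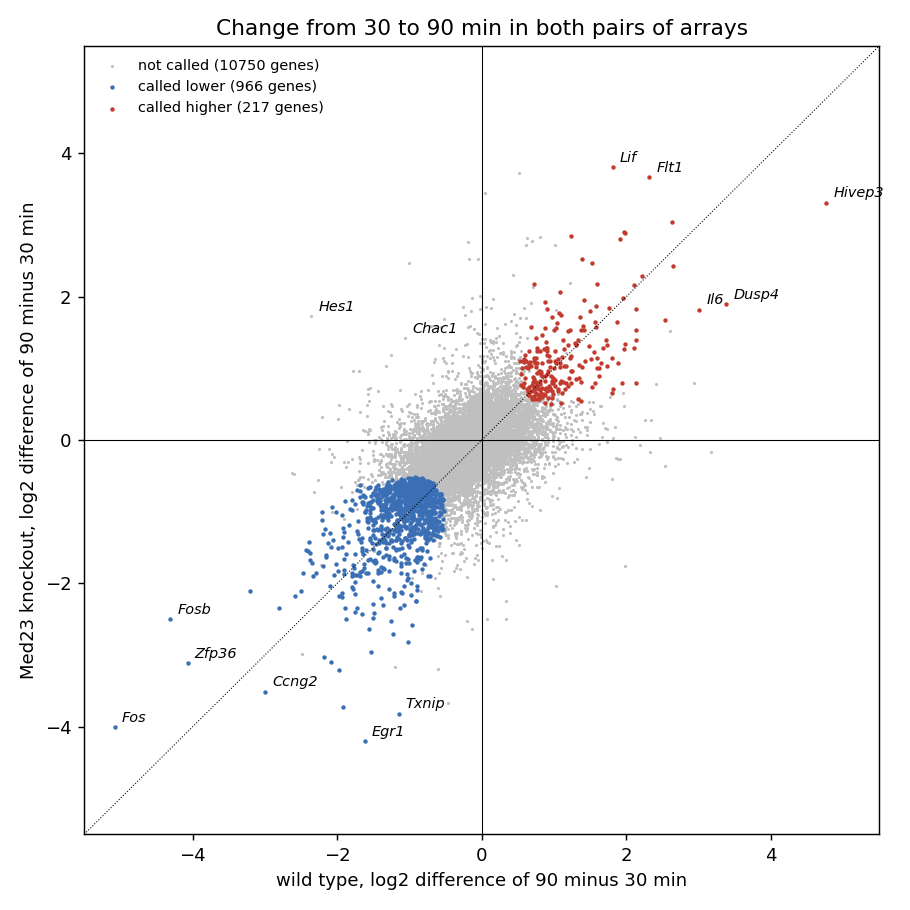
Difference of 90 minus 30 min on the log2 scale in WT cells (horizontal axis) and Med23 KO cells (vertical axis), 1 point a gene, with 966 genes called lower in blue and 217 called higher in red. Fos lies farthest to the lower left and Hivep3 farthest to the right, while Hes1 and Chac1 differ in direction between the genotypes.

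The 278 genes that were 2-fold lower were sorted by their level before serum. A gene was placed in the first wave when its 30 min level was at least 1 above its 0 min level in both genotypes, and was taken as near its starting level when the 2 differed by less than 0.5 in both. These sorts share the 30 min arrays with the comparison of 90 against 30 min, so they describe the genes and test nothing. Of the 278 genes, 17 were of the first wave, 190 had stood near their starting level at 30 min, 2 had already been at least 1 below it, and 69 matched no sort in both genotypes. So 17 of the 278 belonged to the first wave by this sort, and the larger number had shown no change of 0.5 or more by 30 min.

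The largest fall was that of the first wave. Fos, which encodes a subunit of the AP-1 transcription factor, stood at 5.99 in WT and 6.63 in KO cells without serum, at 12.24 and 13.03 at 30 min, and at 7.16 and 9.02 at 90 min. It was 23.3-fold lower at 90 than at 30 min (log2 difference -4.55 ± 0.31, SE, limma adjusted p = 0.0101). The pair differences were -5.08 in WT and -4.01 in KO cells. Here and below, SE is the moderated standard error of the limma fit to all 6 MEF arrays. It is not the spread of the 2 pairs. Both 90 min levels remained above both 0 min levels. Fosb, its close relative, stood at 3.15 and 3.43 at 0 min in WT and KO cells, below the array median, at 9.99 and 9.58 at 30 min and at 5.68 and 7.08 at 90 min. It fell by 3.41 ± 0.40 (SE; adjusted p = 0.0123). Junb, another AP-1 subunit, stood at 7.90 and 6.98, then at 12.32 and 11.62, then at 10.55 and 9.83, and fell by 1.78 ± 0.15 (adjusted p = 0.0101). The WT and KO falls of Junb, 1.77 and 1.79, were nearly equal, and its 90 min levels stayed well above the 0 min levels.

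Zfp36 encodes tristetraprolin, which binds AU-rich messenger RNAs, those of cytokines and of Fos among them, and speeds their decay. Its level was 6.63 in WT and 5.93 in KO cells at 0 min, 11.49 and 11.20 at 30 min, and 7.42 and 8.09 at 90 min, a 12.04-fold fall (-3.59 ± 0.32, SE; limma adjusted p = 0.0101). Btg2, an antiproliferative gene whose protein recruits the deadenylase complex, went from 8.11 and 6.09 through 12.60 and 12.17 to 9.40 and 10.07, and fell by 2.65 ± 0.56 (adjusted p = 0.0405). Of 12 tested genes for mRNA decay and the BTG/TOB family, 3 fell and none was called higher by limma (2 at an unadjusted p under 0.05), 25% lower against 8.1% of all genes. The third was Tnrc6b, a scaffold of microRNA silencing, at 8.18 and 9.07 at 30 min and 7.44 and 8.20 at 90 min. The family members Zfp36l1, Zfp36l2, Btg1, Tob1 and Tob2 did not pass the test, and the list's median difference was -0.03, or 0.04 after quantile normalization.

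Egr1, a zinc finger factor that is a textbook target of SRF, stood at 9.81 in WT and 6.43 in KO cells at 0 min, at 13.45 and 12.55 at 30 min, and at 11.83 and 8.35 at 90 min. The fall was 7.52-fold (-2.91 ± 0.61, SE; limma adjusted p = 0.0381), with pair differences of -1.62 in WT and -4.20 in KO cells, and whether these differ was not tested. Its relatives Egr2 and Egr3 were at least 2-fold lower in both pairs without passing the test. Egr2 stood at 11.24 and 10.50 at 30 min and 9.01 and 8.75 at 90 min (adjusted p = 0.0515). Egr3 stood at 11.90 and 11.13, then at 10.81 and 10.13 (adjusted p = 0.533). The orphan receptor gene Nr4a1, at 13.31 and 12.58 and then 11.82 and 11.03, missed the threshold as well (limma adjusted p = 0.0632). Its pair differences were -1.49 in WT and -1.55 in KO cells, and its 0 min levels 7.12 and 4.79.

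Further first-wave genes fell. Ier2 fell from 12.27 in WT and 11.54 in KO cells to 9.77 and 9.43 (-2.31 ± 0.28, SE; limma adjusted p = 0.0141). Ppp1r15a, which encodes the phosphatase subunit GADD34 of the integrated stress response, fell from 8.93 and 9.32 to 6.83 and 7.28 (-2.07 ± 0.40; adjusted p = 0.0317), and its WT 90 min level was below the 7.89 of the same cells without serum. Atf3, a stress-induced factor of the ATF family, fell from 10.21 and 9.59 to 8.96 and 8.19 (-1.33 ± 0.15; adjusted p = 0.0123). Nfkbiz, an atypical inhibitor of the NF-kB family, and Irf1, an interferon regulatory factor, fell to within 0.8 of their 0 min levels. Nfkbiz stood at 8.96 and 7.84 at 0 min, 10.41 and 10.41 at 30 min and 8.76 and 8.59 at 90 min. Irf1 stood at 8.73 and 8.22, then at 10.36 and 9.57, then at 8.26 and 8.28. The 17 first-wave genes of the 2-fold set were, beside those named, Gadd45g, Prkab2 and Avil, and 13 of the 17 passed the test.

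**Figure D2:**
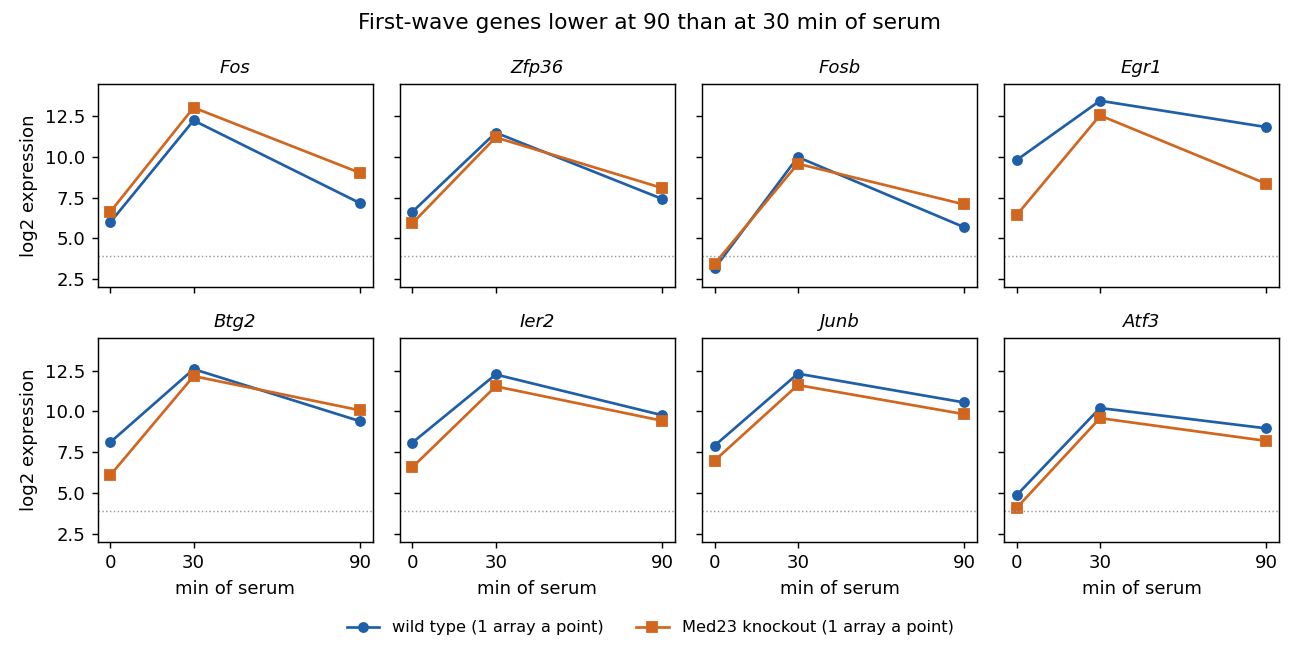
Log2 expression of 8 first-wave genes at 0, 30 and 90 min of serum in WT (blue circles) and Med23 KO (orange squares) cells, 1 array a point, with a dotted line at the mean of the array medians. All 8 stand highest at 30 min in both genotypes; Fos drops from 12.24 and 13.03 to 7.16 and 9.02, and Junb only to 10.55 and 9.83.

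The first wave did not fall as a whole. Of the 30 immediate-early transcription factor genes, all tested, 23 stood at least 1 above their 0 min level at 30 min in both genotypes. At 90 min 7 of the 30 were called lower (Fos, Fosb, Junb, Egr1, Atf3, Ier2 and Klf2) and 2 higher (Klf4 and Nr4a3). These are 23.3% and 6.67%, against 8.1% and 1.82% of all genes. At an unadjusted limma p under 0.05, 10 were lower and 3 higher in both pairs. The list's median difference was -0.44, with -0.66 in the WT pair and 0.0 in the KO pair. Klf2 and Klf4, which encode related zinc finger factors, moved in opposite directions. Klf2 stood at 7.45 and 8.23 at 30 min and at 6.05 and 6.03 at 90 min (limma adjusted p = 0.0160). Klf4 stood at 8.59 and 7.19 and then at 10.19 and 9.37 (adjusted p = 0.0237). Several members kept a high level with no called difference. Srf itself stood at 6.59 in WT and 7.25 in KO cells at 0 min, 9.58 and 9.94 at 30 min and 9.57 and 10.38 at 90 min (0.22 ± 0.17, SE; adjusted p = 0.429). Fosl2, an AP-1 subunit gene, stood at 11.59 and 10.37 at 30 min and at 11.52 and 11.00 at 90 min (adjusted p = 0.421). Fosl1, a further AP-1 subunit gene, was 5.33 and 3.62 at 0 min, 8.89 and 8.03 at 30 min and 9.90 and 10.75 at 90 min, higher in both pairs without passing (adjusted p = 0.0834). Of the remaining AP-1 subunit genes, Jun stood at 11.39 and 11.02 and then at 9.97 and 10.68 (adjusted p = 0.480), and Jund at 10.32 and 9.44 and then at 10.39 and 9.82 (adjusted p = 0.50). Of the 7 AP-1 subunit genes on this list, Fos, Fosb and Junb fell and the other four did not pass the test.

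Promoter stretches are shown for fallen first-wave genes whose windows carry a known regulatory motif, because SRF and cAMP-response factors are established first-wave activators. Windows ran from 250 bases before to 50 after each RefSeq start site (GRCm38.p6), and motifs were searched on both strands. The CArG box is the site of SRF and is given by name only, as is the NF-kB site; the cAMP response element was searched as TGACGTCA. Capitals mark the match. Zfp36 lies at chr7:28379252-28379311 on the minus strand and Btg2 at chr1:134079289-134079346 on the minus strand, each read 5′ to 3′ along its gene and each upstream of the start site.
Zfp36: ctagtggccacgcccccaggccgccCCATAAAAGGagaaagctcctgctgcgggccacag
Btg2: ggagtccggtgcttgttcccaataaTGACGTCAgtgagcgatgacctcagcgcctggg

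The first base of the match lies 58 bases before the start site in Zfp36 and 166 in Btg2. A CArG box was found in 3 of the 13 first-wave genes of the 2-fold set that had a window (Zfp36, Egr2 and Prkab2), against 1.63% of the tested genes with a window and 1.63% of all 32851 windows. An NF-kB site was found in 4 of the 13, against 6.16% of tested genes and 4.51% of all windows. The cAMP response element was found in Btg2 and Ppp1r15a, against 3.53% of tested genes and 1.79% of all windows. A gene with several windows counted once. Among all 797 genes called lower that had a window, the CArG share was 1.63%, the same as among the genes tested. These are matches of letters and show no binding.

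Genes of the starved state had a large share of falls. Of 27 tested genes for starvation and FoxO, 11 fell and 1 rose, 40.7% called lower against 8.1% of all genes, with a median difference of -0.75 (-0.67 after quantile normalization). Ccng2 encodes cyclin G2, a growth-restraining FoxO target. It stood at 10.05 in WT and 8.94 in KO cells at 0 min, at 9.67 and 8.93 at 30 min, and at 6.67 and 5.42 at 90 min, a 9.55-fold fall (-3.26 ± 0.18, SE; limma adjusted p = 0.0101). Pik3ip1, an inhibitor of PI3 kinase, stood at 8.58 and 7.81, then 7.96 and 7.04, then 5.15 and 4.69 (-2.58 ± 0.17; adjusted p = 0.0101). Sesn1 encodes a sestrin, a leucine sensor that restrains the growth kinase complex mTORC1. It stood at 10.33 and 9.43, then 9.94 and 9.17, then 7.56 and 7.49 (-2.03 ± 0.23; adjusted p = 0.0123). All 3 stood less than 1 below their starting level at 30 min and at least 1.9 below it at 90 min.

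The insulin receptor gene Insr fell from 7.99 and 8.05 to 6.84 and 6.53, and Irs1, its adaptor, from 9.40 and 11.45 to 8.46 and 9.63. Only 1 of the 2 probe sets of Insr was lower at 90 min, and the other had a difference of 0.110. Bcl6, a repressor and FoxO target, fell from 7.44 and 7.42 to 5.68 and 5.27, and Hbp1, a repressor that restrains entry into the cell cycle, from 10.46 and 10.25 to 8.53 and 8.76. Sesn3, Rbl2, Klhl24 and Txnip completed the 11, of which Ccng2, Sesn1, Insr and Hbp1 were among the 190 genes 2-fold lower after standing near their starting level. Txnip, whose protein binds thioredoxin and limits glucose uptake, was already lower at 30 min, with 9.90, 7.15 and 6.0 in WT cells at 0, 30 and 90 min and 10.98, 9.22 and 5.40 in KO cells (-2.49 ± 0.56, SE; limma adjusted p = 0.0462). Its relative Arrdc3 was the member that rose, from 7.78 and 5.76 at 30 min to 9.92 and 7.16 at 90 min, after 8.89 and 7.54 at 0 min (1.77 ± 0.32; adjusted p = 0.0287). Both arrestin-family genes were thus below their starting level at 30 min and then went opposite ways.

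Pdgfra, the alpha receptor for platelet-derived growth factor and a fibroblast marker, stood at 10.53 in WT and 10.00 in KO cells at 0 min, at 10.20 and 9.84 at 30 min, and at 8.32 and 7.35 at 90 min (-2.19 ± 0.19, SE; limma adjusted p = 0.0101). It was the only one of 12 tested fibroblast markers that was called, 8.33% lower against 8.1% of all genes. The list's median difference was -0.04. Snai2, which encodes the factor Slug of mesenchymal cells, fell from 6.61 and 10.05 to 4.42 and 8.74, so that WT and KO cells fell from different levels. Smad6 and Bmp4 fell while Smad7 rose. Smad6, an inhibitor of BMP signalling, went from 7.83 and 7.43 at 30 min to 5.91 and 6.08 at 90 min (adjusted p = 0.0124), and Bmp4, a ligand, from 9.0 and 9.72 to 7.56 and 7.87 (adjusted p = 0.0239). Smad7, which restrains TGF-beta receptors, went from 7.62 and 5.78 to 8.59 and 7.50 (adjusted p = 0.0292). Of 11 tested genes of the Id and BMP feedback list, 2 fell and 1 rose, 18.2% and 9.09% against 8.1% and 1.82% of all genes. Of 16 tested mesenchymal transcription regulators 1 fell, Snai2, and 1 rose, Twist1. These are 6.25% lower and 6.25% higher, against 8.1% and 1.82% of all genes.

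Of 16 tested genes of the circadian clock, 4 fell and none was called higher by limma (2 at an unadjusted p under 0.05), 25% called lower against 8.1% of all genes. Dbp, a clock-driven transcription factor gene, stood at 7.22 in WT and 6.10 in KO cells at 0 min, at 7.30 and 6.28 at 30 min and at 4.87 and 4.74 at 90 min (-1.99 ± 0.26, SE; limma adjusted p = 0.0170). Its relative Tef and the period genes Per1 and Per3 were also called lower. Per1, known to respond quickly to serum, stood at 5.85 and 5.89 at 0 min, 7.87 and 7.79 at 30 min and 7.20 and 6.57 at 90 min. The clock-output gene Hlf, at 7.52 and 4.40 and then 6.93 and 3.64, did not pass (adjusted p = 0.0596), and the list's median difference was -0.08, or 0.01 after quantile normalization.

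Of 32 tested genes for S phase and mitosis, 8 fell, all of them genes of mitosis, and 1 rose, the replication licensing gene Cdt1. These are 25% and 3.12%, against 8.1% and 1.82% of all genes, and the list's median difference was -0.68. Kif20a, a mitotic kinesin gene, went from 5.57 in WT and 6.87 in KO cells to 4.21 and 5.82 (limma adjusted p = 0.0262), and Plk1, a mitotic kinase gene, from 5.92 and 6.31 to 4.81 and 5.36 (adjusted p = 0.0350). Some of these lay near the array median. With levels under the median raised to it, the fall of Aurkb, measured as 1.83-fold, was at least 1.34-fold, and that of Kif11, measured as 2.18-fold, at least 2.01-fold. Of 20 tested p53 targets 5 fell and 2 rose, 25% and 10% against 8.1% and 1.82% of all genes. Trp53inp1, a gene of stress-induced autophagy and cell death, fell from 9.10 and 9.75 to 6.63 and 7.89 (adjusted p = 0.0101), and Fas, the death receptor, rose from 9.05 and 7.46 to 10.05 and 8.46 (adjusted p = 0.0192). The fallen p53 targets Btg2 and Gadd45g were first-wave genes as well.

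Genes with a Zfp symbol, most of which encode zinc finger proteins, were counted after their values had been seen. Of 281 tested, 65 were called lower and 3 higher, 23.1% lower against 8.1% of all genes, with a median difference of -0.40 (-0.35 after quantile normalization). Their median level was 5.63 in WT and 5.84 in KO cells at 30 min and 5.06 and 5.13 at 90 min, lower than the 7.01 and 6.99 of all tested genes at 30 min. The poly-A control probe sets, which are not mouse genes, had median levels of 6.21 and 6.58 at 30 min and 5.68 and 6.1 at 90 min. The median differences of these controls were -0.46 in WT and -0.44 in KO cells, against -0.33 and -0.54 for the Zfp genes. The part of this shift in the Zfp calls was not tested. Zfp637, named after its values were seen, stood at 8.23, 8.13 and 5.80 in WT and 9.64, 9.52 and 7.63 in KO cells at 0, 30 and 90 min (-2.11 ± 0.18, SE; limma adjusted p = 0.0101). Hexim1, also named afterwards, encodes an inhibitor of the elongation kinase P-TEFb, and it stood at 8.11, 8.48 and 6.70 in WT and 7.65, 8.06 and 5.98 in KO cells.

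Among the 12 largest called falls were a few genes outside these lists. Mn1, a transcriptional coregulator gene, stood at 8.14 in WT and 8.25 in KO cells at 30 min and at 5.96 and 5.22 at 90 min (-2.61 ± 0.32, SE; limma adjusted p = 0.0143). Mterf2, of the mitochondrial transcription termination factor family, stood at 6.94 and 7.55 and then at 4.85 and 4.45 (-2.60 ± 0.28; adjusted p = 0.0118). Zc3hav1l stood at 6.84 and 8.18 and then at 4.87 and 4.97 (adjusted p = 0.0192). Ttc30b, a gene of transport in cilia, fell at least 5.92-fold, from 6.30 and 7.11 to 4.38 and 3.38, with the KO level at 90 min below the array median. None of the 4 had been at least 1 above its 0 min level at 30 min in either genotype.

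**Figure D3:**
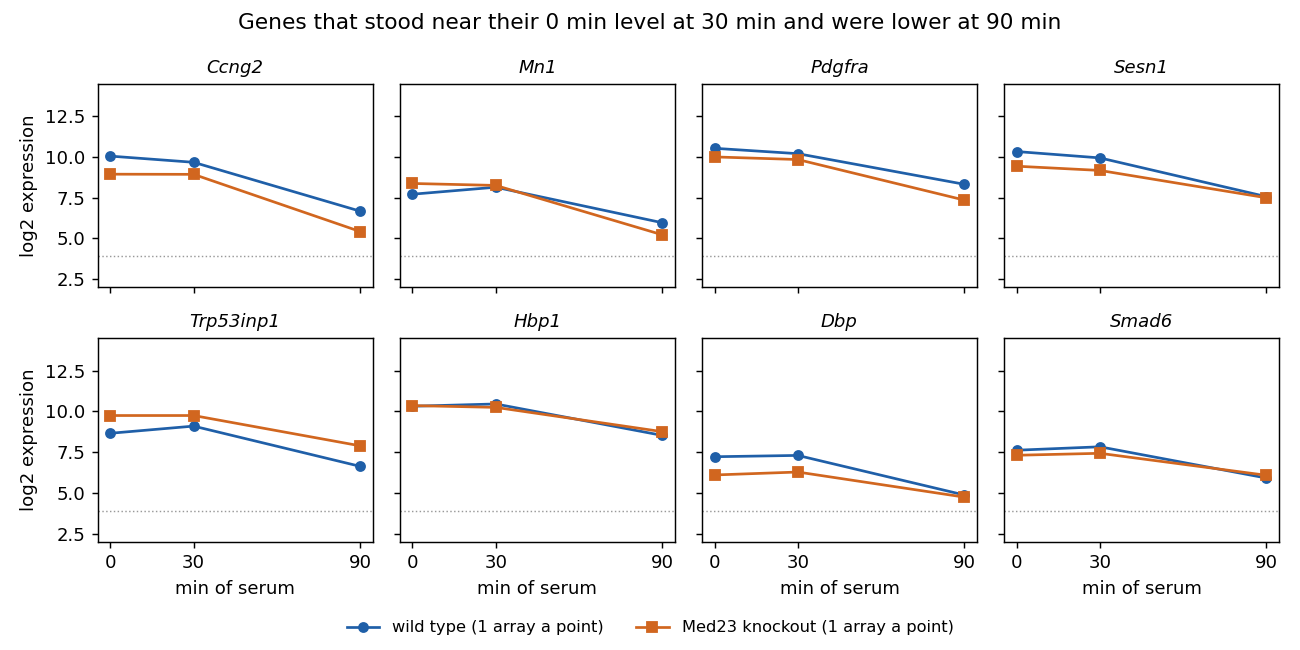
Log2 expression of 8 genes at 0, 30 and 90 min of serum in WT (blue circles) and Med23 KO (orange squares) cells, 1 array a point, with a dotted line at the mean of the array medians. Each is nearly level from 0 to 30 min and lower at 90 min in both genotypes; Ccng2 drops from 9.67 and 8.93 to 6.67 and 5.42.

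Of the 84 genes at least 2-fold higher in both pairs, 33 had stood near their starting level at 30 min, 9 had been at least 1 above it in both genotypes, 2 at least 1 below it, and 40 matched no sort in both genotypes. Hivep3, which encodes a large zinc finger protein that binds kappa-B-like sequences, showed the largest rise. It stood at 4.82 in WT and 5.00 in KO cells at 0 min, 5.58 and 5.55 at 30 min and 10.35 and 8.86 at 90 min, a 16.5-fold rise (4.04 ± 0.39, SE; limma adjusted p = 0.0110). All 5 of its probe sets were higher at 90 min, with differences from 0.295 to 4.04, so the size of the rise differed by probe set. Inhba encodes the subunit of activin A, and Fst encodes follistatin, which binds and neutralises activin. Inhba stood at 7.17 and 7.69, then 7.57 and 7.97, then 10.22 and 10.40 (2.54 ± 0.16; adjusted p = 0.0101). Fst stood at 7.84 and 7.05, then 8.28 and 7.60, then 10.39 and 9.76 (2.14 ± 0.15; adjusted p = 0.0101). The ligand and its antagonist thus rose in the same interval, with WT and KO differences within 0.3 of each other for both.

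Flt1 encodes a receptor for vascular endothelial growth factor, and Vegfa encodes that factor. Flt1 stood at 7.69 in WT and 4.65 in KO cells at 0 min, at 7.98 and 4.87 at 30 min and at 10.30 and 8.54 at 90 min (3.0 ± 0.34, SE; limma adjusted p = 0.0123). The differences of its 4 probe sets ran from 0.165 to 2.995. Flt1 is also an endothelial marker; of the 11 such markers, 3 or 4 were above the array median on each of the 4 arrays, Flt1 and Eng on all of them. Summed log2 levels of that list, Flt1 included, were 42.7 and 41.0 at 30 min and 45.6 and 46.2 at 90 min in WT and KO cells. Emcn was above the array median in KO cells only, at 4.95 and then 5.27. Kdr went from 3.91 and 3.74 at 30 min to 4.04 and 4.07 at 90 min. Pecam1, Cdh5, Tek, Tie1, Esam, Cldn5 and Vwf were below the array median on each of the 4 arrays. Vegfa rose from 8.86 and 7.47 to 10.62 and 9.32 (1.81 ± 0.23; adjusted p = 0.0150).

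Of 18 tested genes of the interleukin 6 cytokine family, its receptors and the Socs feedback inhibitors, 5 rose and none was called lower by limma (1 at an unadjusted p under 0.05), 27.8% against 1.82% of all genes. Il6 stood at 3.54 in WT and 3.15 in KO cells at 0 min, both below the array median, at 5.98 and 5.82 at 30 min and at 8.99 and 7.64 at 90 min (2.42 ± 0.29, SE; limma adjusted p = 0.0141). Lif, a cytokine of the same family, stood at 5.99 and 4.01, then 10.08 and 5.44, then 11.89 and 9.25 (2.81 ± 0.58; adjusted p = 0.0368). WT cells had thus covered most of their Lif climb by 30 min and KO cells little of theirs, a difference that was not tested. Clcf1, a further cytokine of the family, Csf1, the macrophage growth factor, and Socs5 were the other three. The receptor subunit gene Il6st, at 10.10 and 10.35 and then 10.14 and 10.55, did not pass.

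Of 18 tested genes for feedback on MAP kinase, 4 rose and none was called lower by limma (1 at an unadjusted p under 0.05), 22.2% against 1.82% of all genes. Dusp4, a nuclear phosphatase that inactivates MAP kinases, stood at 6.17 in WT and 3.78 in KO cells at 30 min and 9.55 and 5.68 at 90 min, at least 6.06-fold higher (2.64 ± 0.34, SE; limma adjusted p = 0.0160). Dusp2, a related phosphatase, stood at 4.03 and 4.14 at 0 min, 6.19 and 7.50 at 30 min and 7.60 and 9.46 at 90 min (adjusted p = 0.0481). Dusp1, the classic immediate-early member, had lower values at 90 min, 10.34 and 9.75 against 12.82 and 12.74, without passing the test (-2.74 ± 0.78, limma adjusted p = 0.0785). Its pair differences were -2.48 in WT and -2.99 in KO cells, and its 0 min levels 11.87 and 8.28. Dusp5 stood at 10.87 and 11.50 at 30 min and at 11.16 and 10.26 at 90 min, with opposite signs in the 2 genotypes. In the NF-kB feedback list of 18 tested genes, 3 fell (Nfkbiz, Birc2 and Ikbke) and 2 rose (Nfkbie and Nfkb2), 16.7% and 11.1% against 8.1% and 1.82% of all genes.

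Of 32 tested delayed primary and secondary response genes, 9 rose and none was called lower by limma (1 at an unadjusted p under 0.05), 28.1% against 1.82% of all genes, with a median difference of 0.36 as deposited and after quantile normalization. Has2 encodes a hyaluronan synthase. It stood at 4.01, 3.99 and 6.62 in WT and 7.19, 8.18 and 11.23 in KO cells at 0, 30 and 90 min (2.84 ± 0.33, SE; limma adjusted p = 0.0123), so its WT level at 90 min was below every KO level. Plaur, the urokinase receptor, stood at 5.55, 6.77 and 8.99 in WT and 4.94, 6.49 and 8.78 in KO cells (2.26 ± 0.17; adjusted p = 0.0101). Timp1, an inhibitor of matrix metalloproteases, rose from 10.30 and 8.84 to 11.88 and 10.71 (limma adjusted p = 0.0118). It was the only call among 29 tested extracellular matrix genes, 3.45% called higher against 1.82% of all genes. The list was not uniform: Errfi1, an inhibitor of the EGF receptor, stood at 13.77 and 13.05 at 30 min and at 13.94 and 13.07 at 90 min, and Ptgs2, the inducible cyclooxygenase, at 11.67 and 11.78 and then 12.91 and 12.17 (adjusted p = 0.300).

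MAL is a coactivator that carries actin signals to SRF. Of 38 tested targets of MAL and SRF, 4 rose and 2 fell, 10.5% and 5.26% against 1.82% and 8.1% of all genes, with a median difference of 0.28. Vcl, vinculin, stood at 10.05 in WT and 11.00 in KO cells at 0 min, at 10.00 and 11.37 at 30 min, and at 12.14 and 12.90 at 90 min (1.84 ± 0.19, SE; limma adjusted p = 0.0118). Pdlim5, an adaptor of the actin cytoskeleton, Itga5, the fibronectin receptor subunit, and Fermt2, kindlin-2, were the other members that rose. Fermt2 and Itga5 each had 1 of 3 probe sets lower at 90 min, with differences of -2.065 and -0.150. Jag1 and Ccn1 fell. Ccn1, a secreted matrix protein gene of the first wave, stood at 9.84 and 11.12, then 13.82 and 13.81, then 12.07 and 12.92 (adjusted p = 0.0471). Acta2, smooth muscle actin, stood at 13.34 and 14.13 at 30 min and at 13.30 and 14.17 at 90 min on its brightest probe set. Of its 3 probe sets, 2 were lower at 90 min, with the most negative difference at -2.91. None of 16 tested smooth muscle contractile genes was called by limma (1 lower and 2 higher at an unadjusted p under 0.05), and their median difference was 0.15. Of the SRF cofactor genes, Mrtfb, a relative of MAL, was called lower, from 8.93 and 9.34 to 8.25 and 8.66 (adjusted p = 0.0423).

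Genes of ribosome assembly and of glucose use were tested as lists. Of 30 tested ribosome biogenesis genes, 8 rose and none was called lower by limma (2 at an unadjusted p under 0.05), 26.7% called higher against 1.82% of all genes, with a median difference of 0.51 (0.55 after quantile normalization). Rrs1, a ribosome assembly factor, stood at 7.90 in WT and 8.12 in KO cells at 0 min, 7.91 and 8.41 at 30 min and 9.14 and 9.58 at 90 min (1.20 ± 0.16, SE; limma adjusted p = 0.0165). Wdr43, Ddx21, Nop56, Rrp1b, Gnl3, Nip7 and Ftsj3 were the others. None of 13 tested ribosomal protein genes was called by limma, and 0 had an unadjusted p under 0.05 with 1 sign in both pairs. Hk2, hexokinase 2, which starts glycolysis, rose from 7.10 and 6.97 to 9.05 and 8.95 (1.97 ± 0.17; adjusted p = 0.0101), and Slc2a1, a glucose transporter, from 10.54 and 9.54 to 11.65 and 10.20 (adjusted p = 0.0345). Both belong to a hypoxia and glycolysis list in which 4 of 17 tested genes rose and 1 fell. These are 23.5% and 5.88%, against 1.82% and 8.1% of all genes, and the list's median difference was 0.02 (-0.02 after centring). Srxn1, sulfiredoxin, which repairs oxidised peroxiredoxins, stood at 6.40, 6.55 and 8.52 in WT and 5.25, 5.29 and 8.19 in KO cells (2.44 ± 0.25; adjusted p = 0.0118).

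Noct and Spsb1 completed the 12 largest called rises. Noct, nocturnin, stood at 6.56 in WT and 5.89 in KO cells at 0 min, 9.25 and 8.62 at 30 min and 11.23 and 11.51 at 90 min (2.44 ± 0.26, SE; limma adjusted p = 0.0118). Spsb1, an adaptor of a ubiquitin ligase, stood at 5.52 and 4.42, then 6.30 and 5.35, then 8.22 and 8.15 (2.36 ± 0.27; adjusted p = 0.0123). Noct had thus climbed in both intervals, and Spsb1 mostly in the second.

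**Figure D4:**
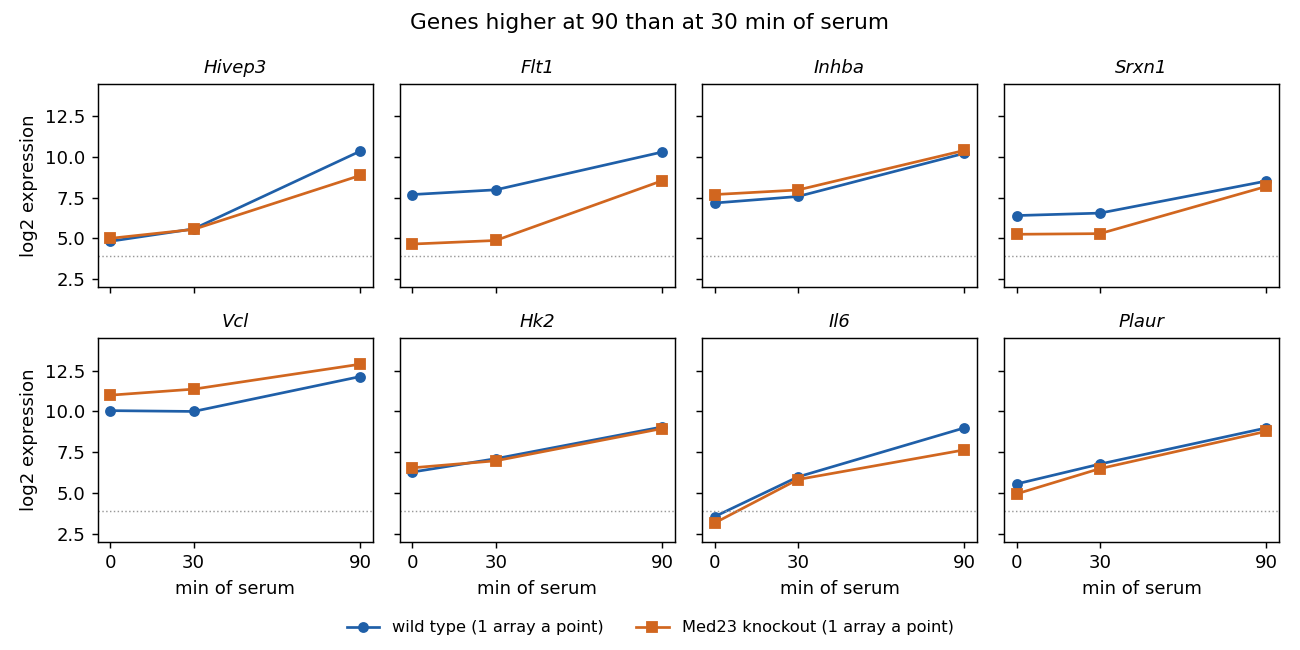
Log2 expression of 8 genes at 0, 30 and 90 min of serum in WT (blue circles) and Med23 KO (orange squares) cells, 1 array a point, with a dotted line at the mean of the array medians. Flt1, Inhba, Srxn1 and Vcl differ by less than 0.5 between 0 and 30 min and are higher at 90 min, while Il6 and Plaur are higher at each step.

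Promoter stretches of genes that rose are shown where a window held an SRF, AP-1 or NF-kB match, since AP-1 subunits are products of the first wave and Vcl shares the CArG box with the fallen Zfp36. The AP-1 site was searched as TGANTCA, where N is any base, and capitals again mark the match. The stretches are from GRCm38.p6, on the plus strand and upstream of the start site: Vcl at chr14:20929148-20929205, Srxn1 at chr2:152105397-152105510, Plaur at chr7:24462389-24462445 and Il6 at chr5:30013045-30013104. The match is a CArG box in Vcl, an AP-1 site in Plaur and at 2 places in Srxn1, and an NF-kB site in Il6.
Vcl: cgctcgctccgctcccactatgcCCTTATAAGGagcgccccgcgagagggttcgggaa
Srxn1: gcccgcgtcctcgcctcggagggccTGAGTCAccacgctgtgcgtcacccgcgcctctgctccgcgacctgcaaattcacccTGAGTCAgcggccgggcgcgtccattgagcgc
Plaur: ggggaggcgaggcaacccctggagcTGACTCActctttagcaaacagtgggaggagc
Il6: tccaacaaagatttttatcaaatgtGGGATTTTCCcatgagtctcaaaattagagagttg

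Of the 166 genes called higher that had a window, 11.45% held an NF-kB site, against 5.27% of the genes called lower and 6.16% of the genes tested. An AP-1 site was found in 9.64% of them, against 4.89% of the genes called lower, 6.23% of tested genes and 7.81% of all windows. A CArG box was found in 2.41% of them, which is 4 genes, against 1.63% of the genes called lower and 1.63% of tested genes. The first base of the match lies 227 bases before the start site in Vcl and 58 in Zfp36, so the same named motif stands in a gene that rose late and in one that fell after the first wave.

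Across the lists, calls in both directions were uneven. The starvation and FoxO list had the largest share called lower among lists with at least 10 tested genes, 40.7%. The TGF-beta response list had the largest share called higher, 4 of 14 genes (Smad7, Smurf1, Pmepa1 and Inhba), 28.6% against 1.82% of all genes. Of 32 tested Mediator subunit genes other than Med23 none was called by limma, with a median difference of -0.20, and 11 were lower and 1 higher at an unadjusted p under 0.05. Of 14 tested chemokine genes 1 rose, Ccl20, which is 7.14% against 1.82% of all genes. Ccl2, at 12.91 and 10.89 and then 14.13 and 13.08, did not pass (limma adjusted p = 0.205).

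**Figure D5:**
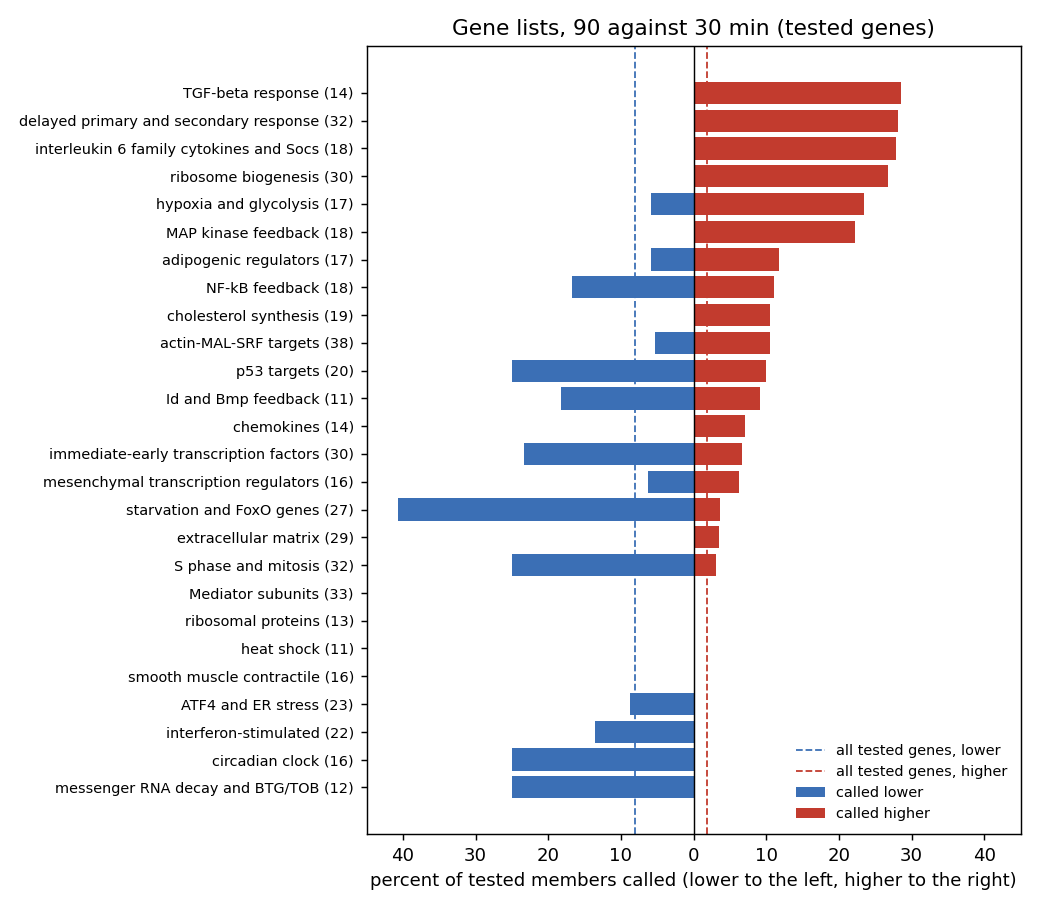
Percent of tested members called lower (blue, to the left) and higher (red, to the right) at 90 against 30 min for each gene list with at least 10 tested genes, with dashed lines at the 8.1% and 1.82% of all tested genes. The starvation and FoxO list reaches 40.7% lower, and the TGF-beta, delayed response, interleukin 6 and ribosome biogenesis lists exceed 25% higher.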

How the data were processed

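Expression had been measured on 10 Affymetrix arrays, of which the 6 of MEFs were fitted. The authors deposited log2 expression values per probe set; RMA and MAS5 are named per the submitters' processing notes, with no role, so which of them made the values is unknown here. Scan dates were not used here. Of 45101 probe sets, 64 were controls, 34945 had 1 gene symbol in the platform annotation, 932 had several and 9160 none. Symbols were updated through Entrez identifiers (34741 matched) to RefSeq. A gene was represented by its brightest probe set, on average over all 10 arrays. limma 3.58.1 in R 4.3.3 (lmFit, eBayes) was fitted with genotype and serum time as additive terms, leaving 2 residual and 4.18 prior degrees of freedom. Two-sided p-values were adjusted by Benjamini-Hochberg over the 11933 genes tested. The residual holds noise and any interaction of genotype with time.

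Named genes were the 12 largest called coefficients in each direction, without clone or predicted names, plus Med23, Srf and members of 35 gene lists. The comparison, the members and the lists were chosen with earlier results of these data known. Of 673 listed genes, 638 had a named probe set. Folds marked "at least" have levels under the array median raised to it, a bound chosen after the data were seen. Arrays give no read depth, so their number limits the precision. Promoter windows are RefSeq's, and 9624 of the tested genes had one; the sequence of 1 window is not reported here. Alternatives are given at the end.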

Additional observations from a re-analysis of the deposited data

Results flagged for a closer look

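Hes1 and Chac1, both members of the gene lists, moved in opposite directions in the 2 genotypes between 30 and 90 min. Hes1, a repressor gene of the Notch pathway, stood at 9.53 and then 7.17 in WT cells, a difference of -2.36, and at 6.49 and then 8.22 in KO cells, a difference of 1.73. Chac1, a glutathione-degrading enzyme gene of the ATF4 response, stood at 9.15 and then 8.09 in WT cells, a difference of -1.06, and at 6.56 and then 7.98 in KO cells, a difference of 1.42. The difference between genotypes was not tested, since each condition had 1 array. Of the 11933 genes tested, 7 changed by at least 1 in opposite directions.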

How the results depend on the processing

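No gene was called in either direction (0 lower, 0 higher) with the 4 arrays at 30 and 90 min alone, without the genotype term, or without any 1 of the 6 arrays (range 0 to 0). The fit then had fewer residual degrees of freedom or, without the genotype term, the difference between genotypes in its residual. Unadjusted p-values under 0.05 numbered 2675 with the 4 arrays, 983 without the genotype term and 1549 to 4239 without 1 array. Quantile normalization left 570 genes lower, 569 of them also called in the values as deposited, and 253 higher, 198 of them shared. The 2-fold count of lower genes was then 177. With the mean over a gene's probe sets, 611 genes were lower, and 159 were 2-fold lower in both pairs; the cause was not tested. Msmo1, of cholesterol synthesis, reversed there, from 0.81 to -0.17. The other alternatives (no filter, a stricter filter, median centring, each probe set on its own, a variance trend, and a floor for the 2-fold counts) kept the counts within 1.5 times. Of the 112 called genes among those named, 95 kept their call after quantile normalization and 84 with the mean over probe sets. The labels give no replicate numbers, and the arrays were paired by genotype through the genotype term of the fit. Of the genes called, 117 of 966 lower and 14 of 217 higher had at least 1 of the 4 arrays below the array median, where signal cannot be told from background. Of 483 lower genes with several probe sets, 98 had one of the other sign, and of 148 higher genes, 19.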
